A study of Mus musculus with 8 samples.

Results

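Red blood cells arise from hematopoietic stem cells through megakaryocyte-erythroid progenitors, which switch on a program driven by the transcription factors GATA1 and KLF1. KLF1 (erythroid Krüppel-like factor) binds CACCC elements at erythroid promoters, among them those of the adult beta globin genes, and the program builds the parts of the red cell in stages: carbonic anhydrases and surface proteins such as the blood group carriers appear early, whereas the bulk of globin RNA is made in maturing erythroblasts. The genes described here are *Klf1*, the adult alpha globin genes *Hba-a1* and *Hba-a2*, the adult beta globin genes *Hbb-bs* and *Hbb-bt*, the carbonic anhydrases *Car1* and *Car2*, *Ermap*, which encodes the erythroblast membrane-associated protein of the Scianna blood group, and *Rhd*, which encodes the Rh blood group protein. They were chosen by name, with earlier results of these data known, as a group of erythroid factor, globin and membrane genes. They make up 9 of the 54532 genes in the count table. All 9 passed the filter on low counts, which left 13560 genes to test.

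Both groups came from *Zeb1 fl/fl;Mx1-Cre* mice on a C57BL/6 background in which pIpC had been given to delete *Zeb1*, a gene for a zinc finger transcription factor. Bone marrow was taken on day 14 after the last pIpC dose from animals aged 8 to 12 weeks, and Lin- c-KIT+ SCA-1+ (LSK) cells, the gate that holds stem cells and multipotent progenitors, were sorted by surface EpCAM into *Zeb1-/-* EpCAM+ and *Zeb1-/-* EpCAM- fractions, with 4 RNA-Seq libraries of each and 4 mice per genotype according to the labels. The comparison asks how gene expression differs between *Zeb1-/-* stem and progenitor cells with and without EpCAM on their surface. Mx1-Cre acts in interferon-responsive cells of many kinds, stem cells and their progeny included, both fractions carry the deletion, and no library of control mice is part of the comparison, so that the values below describe EpCAM+ against EpCAM- cells and not the effect of *Zeb1*. In the study's flow cytometry red cells were lysed and the lineage cocktail for LSK cells included TER119, an antigen of maturing red cells, whereas the sort of the EpCAM fractions itself is not described in the sources used here. RNA was amplified with the SMART-Seq v4 kit before library preparation. Total counts per library ranged from 15225714 to 17073546 in EpCAM+ and from 14114491 to 15929923 in EpCAM-. Levels are given as counts or as CPM, edgeR's measure of counts relative to the library size after TMM scaling.

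The gate and the targeted gene were examined first. *Epcam* CPM were 234, 161, 171 and 183 in EpCAM+ replicates 1 to 4 and 8.99, 3.77, 1.43 and 1.25 in EpCAM- replicates 1 to 4, in keeping with the sort. *Zeb1* counts were 363, 261, 373 and 290 in EpCAM+ and 214, 189, 157 and 129 in EpCAM- replicates 1 to 4; counts over the whole gene do not show whether the deleted part was transcribed, and without control libraries they check no label. *Kit*, which encodes c-KIT, was at 244 to 328 CPM in EpCAM+ and 155 to 245 CPM in EpCAM-. *Ly6a*, which encodes SCA-1, was more uneven.

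*Ly6a* counts were 1149, 829, 241 and 214 in EpCAM- replicates 1 to 4, against 5370, 3444, 2513 and 1786 in EpCAM+ replicates 1 to 4. EpCAM- replicates 3 and 4 thus held far fewer *Ly6a* counts than EpCAM- replicates 1 and 2. The stem cell marker *Procr* had counts of 379, 213, 99 and 51 in EpCAM- replicates 1 to 4, again lowest in replicates 3 and 4, and 1256, 1298, 1110 and 630 in EpCAM+. The log2 fold change of EpCAM+ over EpCAM- was 2.28 for *Ly6a* (SE 0.53, adjusted p = 0.00658) and 2.36 for *Procr* (SE 0.46, adjusted p = 0.00272) by edgeR's quasi-likelihood test, adjusted by the Benjamini-Hochberg method. They were 1.58 and 1.70 without EpCAM- replicates 3 and 4, both called. EpCAM- replicates 3 and 4 were also the libraries with the highest *Klf1*, *Car1*, *Ermap* and *Rhd*, and the results below that leaving them out changes most are therefore also given without them; that alternative, and the naming of *Ly6a*, *Procr* and *Kit*, were chosen after these values were seen. The part that this unevenness had in the other results was not tested.

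Of the 9 genes, 5 were lower and 1 was higher in EpCAM+ cells at an adjusted p under 0.05 (edgeR's quasi-likelihood test, adjusted by the Benjamini-Hochberg method, two-sided), and 3 did not pass. Across all 13560 tested genes, 42.6% passed, 20.8% as lower and 21.8% as higher, so a call alone was common in this comparison. These counts are from the unpaired fit. In the paired fit with the replicate block 7 of the 9 genes were called, 6 of them lower, beside 6818 of all tested genes. The 4 values of each fraction did not overlap for 6 of the 9 genes, against 40.1% of all tested genes. The median log2 fold change of the 9 was −2.08 beside 0.02 for all tested genes. Over all genes the calls were 2961 higher and 2818 lower with TMM scaling, 3642 and 2083 with upper-quartile scaling, and 3476 and 2066 with library totals alone; the last pair of scalings moved the median log2 fold change of all genes to 0.11. The 9 genes kept the same sign under each scaling. In bulk RNA such as this, fewer cells of a type and less RNA per cell cannot be told apart.

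**Figure D1:**
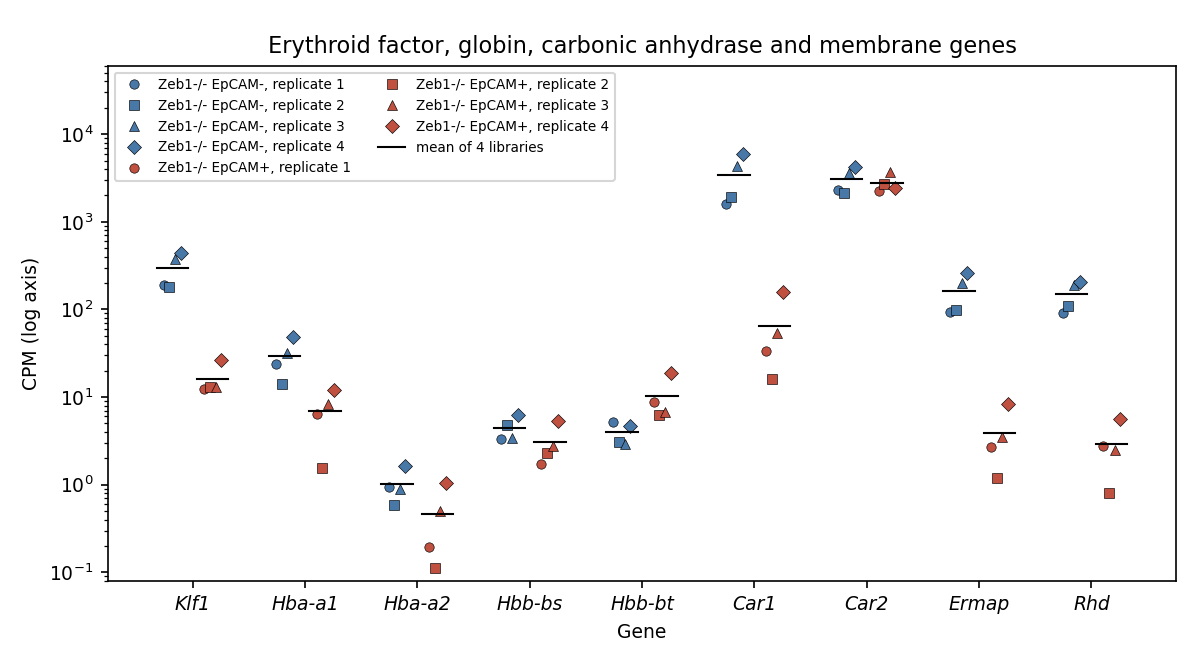
CPM of each of the 9 genes on a log axis in 4 *Zeb1-/-* EpCAM- libraries (blue) and 4 *Zeb1-/-* EpCAM+ libraries (red), with the mean of each fraction as a black line and a marker shape for each replicate number. *Klf1*, *Hba-a1*, *Car1*, *Ermap* and *Rhd* lie lower in EpCAM+ without overlap, *Hbb-bt* lies higher without overlap, and the fractions overlap for *Hba-a2*, *Hbb-bs* and *Car2*.

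Among the transcription factors, *Klf1* and its partner *Gata1* had the most negative fold changes in the list of 20 erythroid factors. *Klf1* (chr8:84901928-84905291, plus strand, GRCm38.p6) had counts of 3057, 2408, 5582 and 6005 in EpCAM- replicates 1 to 4 and 187, 227, 234 and 409 in EpCAM+ replicates 1 to 4. Every EpCAM+ library was far below every EpCAM- library, and within each fraction replicate 4 was the highest. Mean levels were 298 ± 133 CPM in EpCAM- and 16.2 ± 6.91 CPM in EpCAM+ (SD, n = 4 each), with a log2 fold change of -4.21 (SE 0.38) and an adjusted p of 0.000134 by edgeR's quasi-likelihood test, adjusted by the Benjamini-Hochberg method. This was the 48th most negative fold change of the 13560. Without EpCAM- replicates 3 and 4 the log2 fold change was -3.53 (edgeR adjusted p = 0.000933; range over all alternatives 7.26e-19 to 0.00102).

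*Gata1*, the factor that opens the erythroid and megakaryocytic programs, had 2005, 1513, 3078 and 3626 counts in EpCAM- and 492, 783, 720 and 795 in EpCAM+ replicates 1 to 4, a log2 fold change of -2.08 (SE 0.27, adjusted p = 0.000397, edgeR). No EpCAM+ library reached an EpCAM- library for *Gata1* in CPM, and the fold change was smaller than the estimate for *Klf1*, a difference between genes that was not tested. *Gfi1b*, a repressor needed in both erythroid and megakaryocytic cells, was lower by a smaller amount, at -0.89 (SE 0.18, edgeR adjusted p = 0.00323). Leaving out EpCAM- replicates 3 and 4 gave -1.51 for *Gata1* and -0.51 for *Gfi1b*, both called. *Gata2*, which precedes *Gata1* in progenitors, had 126 to 199 CPM in EpCAM- and 192 to 224 CPM in EpCAM+ and was not called, with a log2 fold change of 0.28 (95% CI 0.00 to 0.56, edgeR adjusted p = 0.0960); it was called with upper-quartile scaling, with library totals, without EpCAM- replicates 3 and 4 (0.45) and in the paired fit with the replicate block, there at 0.30 (adjusted p = 0.0434, range over alternatives 0.0348 to 0.218). *Tal1*, a bHLH factor of both stem cells and erythroid cells, lay between 32.5 to 37.8 CPM in EpCAM- and between 31.0 to 37.7 CPM in EpCAM+, and its log2 fold change of -0.02 (95% CI -0.23 to 0.19) was not called. *Gata2* and *Tal1* were named after their values were seen. In the list of 20 erythroid transcription factors, all of them tested, 4 were lower, 5 were higher and 11 were not called, with a median log2 fold change of 0.08. The higher ones with the smallest p were *Sox6* (1.32, SE 0.24, edgeR adjusted p = 0.00183), which silences embryonic beta-like globin genes, and, with small differences, *Lmo2* (0.42) and *Nfe2* (0.39), whose calls were lost without EpCAM- replicates 3 and 4 (0.35 and 0.32).

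**Figure D2:**
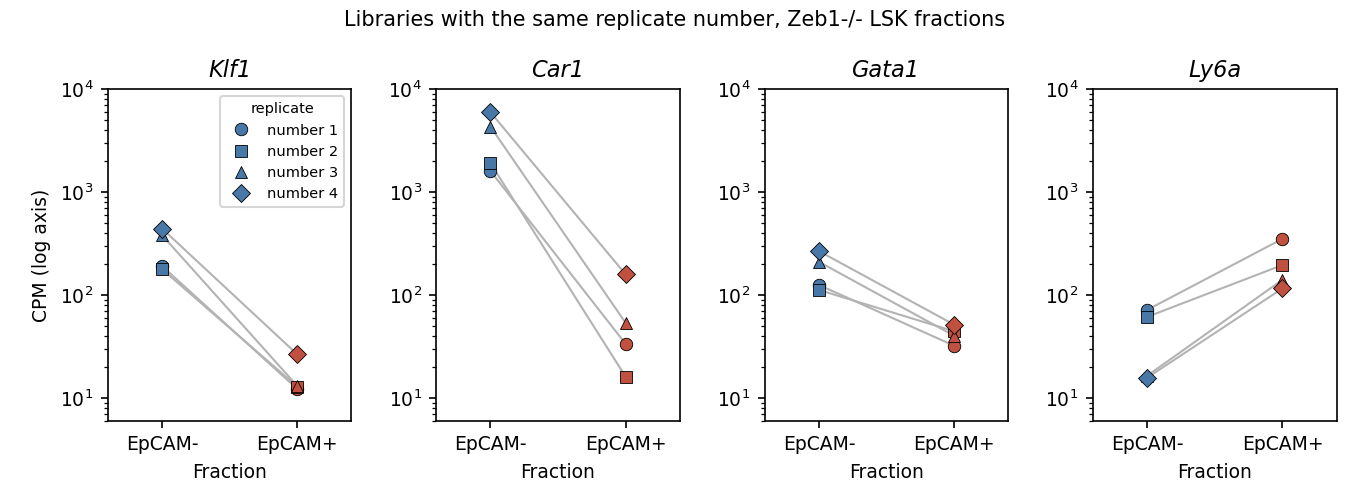
CPM on a log axis of *Klf1*, *Car1*, *Gata1* and *Ly6a* in each library, with grey lines joining *Zeb1-/-* EpCAM- (blue) and EpCAM+ (red) libraries of the same replicate number. All 4 lines fall for *Klf1*, *Car1* and *Gata1* and all 4 climb for *Ly6a*, and EpCAM- replicates 3 and 4 hold the highest *Klf1* (381 and 442 CPM) and the lowest *Ly6a* (16.4 and 15.7 CPM).

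The membrane genes showed some of the most negative fold changes in the table. *Rhd* (chr4:134864536-134896172, plus strand) had counts of 1449, 1472, 2788 and 2815 in EpCAM- replicates 1 to 4 and 42, 14, 44 and 87 in EpCAM+ replicates 1 to 4. Mean levels were 149 ± 58.0 and 2.91 ± 2.01 CPM (SD, n = 4 each), and the log2 fold change was -5.70 (SE 0.46, edgeR adjusted p = 0.000103), the 10th most negative of all. *Rhd* thus had 14 counts in its lowest library, EpCAM+ replicate 2, and 1449 or more in every EpCAM- library. *Ermap* (chr4:119175457-119190011, minus strand) had counts of 1488, 1319, 2968 and 3507 in EpCAM- replicates 1 to 4 and 41, 21, 62 and 129 in EpCAM+ replicates 1 to 4. Its mean was 163 ± 81.2 CPM in EpCAM- and 3.93 ± 3.11 CPM in EpCAM+ (SD, n = 4 each), with a log2 fold change of -5.39 (SE 0.54, edgeR adjusted p = 0.000179), the 16th most negative. Both genes were lowest in EpCAM+ replicate 2 and highest in EpCAM+ replicate 4, and without that last library *Ermap* moved to -6.06. Without EpCAM- replicates 3 and 4 the log2 fold changes were -5.12 for *Rhd* and -4.62 for *Ermap*, both called.

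The wider list of red cell membrane, skeleton and blood group genes held 25 genes, of which 22 were tested. Of these, 14 were lower and 4 were higher in EpCAM+ cells, with a median log2 fold change of -2.75; leaving out *Rhd* and *Ermap*, 12 of 20 were lower and the median was -1.82. *Rhag*, whose product forms the Rh complex with the *Rhd* product, had 745, 638, 1229 and 2310 counts in EpCAM- and 26, 11, 53 and 102 in EpCAM+ replicates 1 to 4 (-4.88, SE 0.63, edgeR adjusted p = 0.000390). *Tspo2*, a transporter-like protein of erythroid cells, was at -5.36, *Kel*, which carries the Kell antigens and was named after its value was seen, at -5.02, and the water channel gene *Aqp1* at -3.58, all 3 called. Without EpCAM+ replicate 4 *Rhag* moved to -5.61 and *Tspo2* to -6.06. *Rhag* was at -3.999, *Tspo2* at -4.74, *Kel* at -4.21 and *Aqp1* at -2.80 without EpCAM- replicates 3 and 4, all still called. *Bcam*, which carries the Lutheran antigens and is a laminin receptor also found on epithelial cells, went the other way. *Bcam* counts were 210, 245, 199 and 196 in EpCAM+ and 17, 7, 10 and 11 in EpCAM- replicates 1 to 4 (4.04, SE 0.22, edgeR adjusted p = 1.78e-05). The other higher genes with the smallest p, *Art4* (0.88) and *Tmod1* (0.91), had smaller differences. Without EpCAM- replicates 3 and 4 both calls were lost (0.98 and 0.78), and *Tmod1* was called in 5 of the 8 fits that left out a library.

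**Figure D3:**
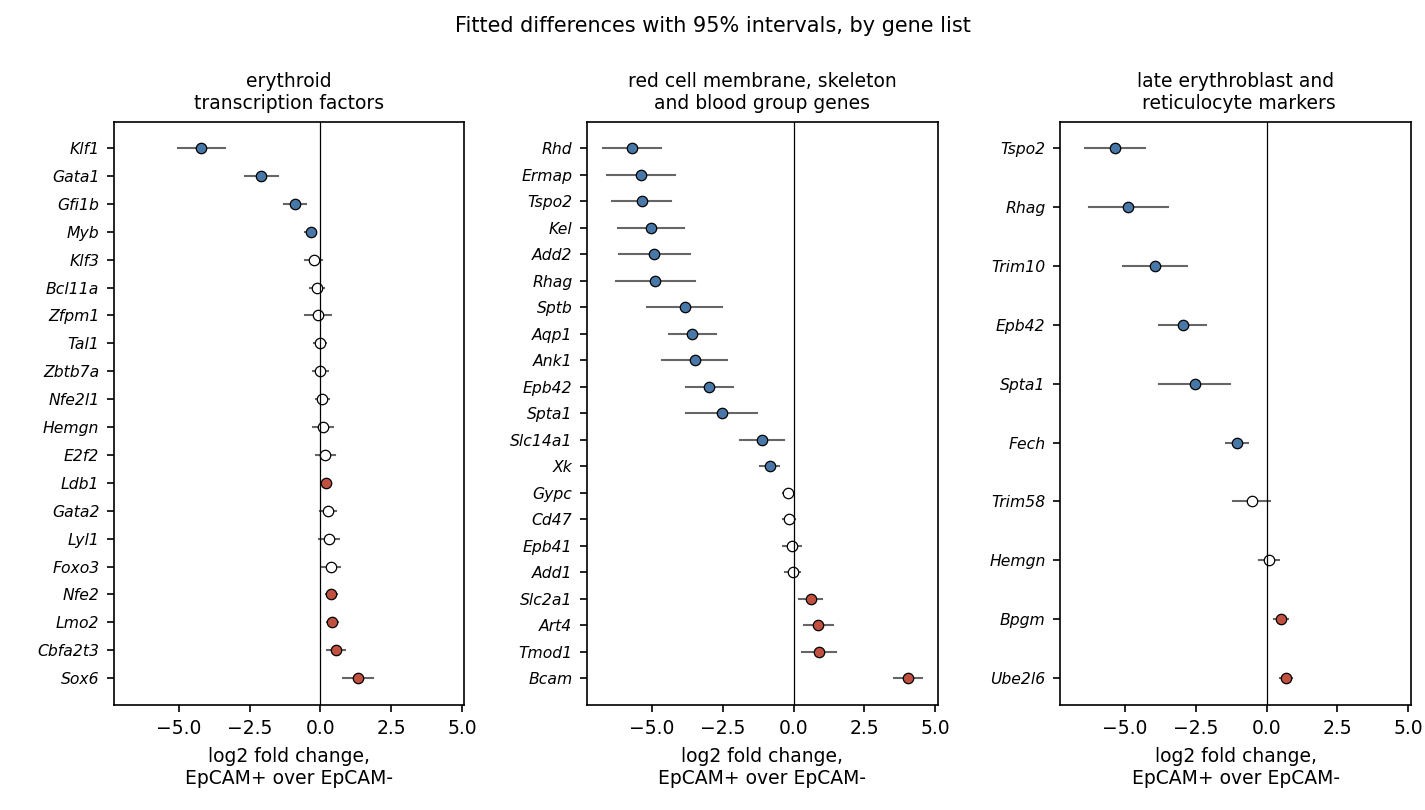
Log2 fold change of EpCAM+ over EpCAM- (points) with 95% intervals (lines) for tested genes of 3 lists, in blue for genes called lower, red for genes called higher and white for genes not called at an adjusted p of 0.05. *Klf1* (-4.21) and *Gata1* (-2.08) lie lowest of the 20 transcription factors, whereas most membrane genes lie far below 0 and *Bcam* (4.04) lies far above it.

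*Car1* and *Car2* encode cytosolic carbonic anhydrases and lie in the same stretch of chromosome 3, with *Car3* between them (*Car1* at chr3:14766216-14808368 on the minus strand and *Car2* at chr3:14886273-14900770 on the plus strand), but they differed in how they compared between the fractions. *Car1* had counts of 25611, 25750, 63187 and 80982 in EpCAM- replicates 1 to 4 and 512, 283, 958 and 2444 in EpCAM+ replicates 1 to 4. The EpCAM- values were among the highest of any gene: *Car1* ranked 14th by mean CPM and 4th by CPM per kilobase there, and 3368th by mean CPM in EpCAM+. The means were 3443 ± 2069 and 65.4 ± 63.9 CPM (SD, n = 4 each), and the log2 fold change of -5.72 (SE 0.77, edgeR adjusted p = 0.000474) was the 9th most negative. *Car1* made up 0.161 to 0.564% of all counts in EpCAM- libraries and 0.00169 to 0.0158% in EpCAM+ libraries. EpCAM+ replicate 4 was the highest of its fraction for *Car1*, and without it the log2 fold change was -6.65; without EpCAM- replicates 3 and 4 it was -4.76, and *Car1* was called in both cases. A processed pseudogene on the same strand within *Car1*, Gm16399, had at most 2 counts in any library.

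*Car2*, which is also expressed in other blood lineages, had counts of 37054, 28759, 52613 and 57371 in EpCAM- replicates 1 to 4 and 33977, 47404, 66759 and 37219 in EpCAM+ replicates 1 to 4. The ranges overlapped broadly, and *Car2* ranked 18th by mean CPM in EpCAM- and 20th in EpCAM+. The means were 3063 ± 1009 and 2763 ± 673 CPM (SD, n = 4 each), a log2 fold change of -0.15 (95% CI -0.67 to 0.37, edgeR adjusted p = 0.633), whose sign turned to 0.040 without EpCAM- replicate 4 and to 0.30 without EpCAM- replicates 3 and 4. The ratio of *Car1* to *Car2* counts was 0.691, 0.895, 1.20 and 1.41 in EpCAM- replicates 1 to 4 and 0.0151, 0.00597, 0.0144 and 0.0657 in EpCAM+ replicates 1 to 4. Among all tested genes 20.8% were lower and 21.8% were higher. Of 16 carbonic anhydrase genes 8 were tested, of which only *Car1* was lower, 2 were higher and 5 were not called. The higher ones were the mitochondrial *Car5b* (1.69 to 3.19 CPM in EpCAM+ and 0.546 to 1.19 CPM in EpCAM-; 1.58, edgeR adjusted p = 0.00436) and *Car13* (0.45, edgeR adjusted p = 0.0421), whose call was lost in the paired fit with the replicate block (adjusted p = 0.0541; range over alternatives 0.0245 to 0.249). Without EpCAM- replicates 3 and 4 the calls of *Car5b* (1.20) and *Car13* (0.32) were both lost.

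The globin genes were expressed at low levels in both fractions, and *Hbb-bt* alone of the adult genes had a positive fold change. Together the adult globin genes had, in CPM on total counts without TMM scaling, 33.5, 21.5, 38.1 and 58.1 in EpCAM- replicates 1 to 4 and 17.1, 10.8, 19.1 and 37.2 in EpCAM+ replicates 1 to 4. In maturing erythroblasts globin transcripts are among the most abundant of all RNAs, whereas here each adult globin gene ranked 2030th or lower by CPM per kilobase in both fractions. *Hba-a1* (chr11:32283511-32284465, plus strand) had counts of 382, 189, 469 and 664 in EpCAM- and 97, 27, 148 and 184 in EpCAM+ replicates 1 to 4. The fractions did not overlap in CPM, although EpCAM+ replicate 4 (11.9 CPM) came close to EpCAM- replicate 2 (14.0 CPM). The means were 29.7 ± 14.8 and 7.02 ± 4.33 CPM (SD, n = 4 each), a log2 fold change of -2.08 (SE 0.51, edgeR adjusted p = 0.00850). Without EpCAM- replicates 3 and 4 it was -1.45 and the call was lost (edgeR adjusted p = 0.110; range over alternatives 8.66e-05 to 0.110). *Hba-a2* (chr11:32296489-32297298, plus strand) had only 15, 8, 13 and 22 counts in EpCAM- and 3, 2, 9 and 16 in EpCAM+ replicates 1 to 4. It was not called (-1.12, 95% CI -2.42 to 0.17, edgeR adjusted p = 0.143), but it passed in the paired fit with the replicate block at -1.24 (adjusted p = 0.0397) and without EpCAM+ replicate 4 at -1.85 (adjusted p = 0.0299), within a range of 0.0299 to 0.507 over alternatives.

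The alpha copies are nearly identical: of all 150-base stretches in their annotated transcripts (the read length), 377 of 661 in *Hba-a1* and 377 of 516 in *Hba-a2* occurred in the other gene. How reads that match both copies were counted is not given in the sources used here, so the split between *Hba-a1*, which took 95.9 to 97.3% of alpha counts in EpCAM- and 92 to 97.0% in EpCAM+, and *Hba-a2* is uncertain. With both copies summed the log2 fold change was -2.04 (edgeR adjusted p = 0.00947). The summed alpha globin RNA was thus lower in EpCAM+ cells, beside the limit given for *Hba-a1* without EpCAM- replicates 3 and 4.

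The beta globin genes differed from each other in the sign of their fold changes. *Hbb-bt* (chr7:103812524-103813996, minus strand), the beta-t gene of the adult locus, had counts of 84, 41, 43 and 64 in EpCAM- and 135, 111, 120 and 292 in EpCAM+ replicates 1 to 4. All EpCAM+ libraries lay above all EpCAM- libraries in CPM, and EpCAM+ replicate 4 was the highest. The means were 3.98 ± 1.17 CPM in EpCAM- and 10.2 ± 5.93 CPM in EpCAM+ (SD, n = 4 each), a log2 fold change of 1.35 (SE 0.37, edgeR adjusted p = 0.0146). It was 0.86 without EpCAM+ replicate 4 (still called), and 1.28 without EpCAM- replicates 3 and 4, where the call was lost (edgeR adjusted p = 0.102; range over alternatives 0.000996 to 0.102). *Hbb-bs* (chr7:103826534-103828096, minus strand), its beta-s neighbour, had counts of 53, 65, 50 and 84 in EpCAM- and 26, 41, 49 and 83 in EpCAM+ replicates 1 to 4. *Hbb-bs* CPM was lower in EpCAM+ in all 4 pairs of the same replicate number, but the ranges of the fractions overlapped. It was not called, neither in the unpaired fit (-0.54, 95% CI -1.34 to 0.25, edgeR adjusted p = 0.244) nor in the paired fit with the replicate block (-0.61, adjusted p = 0.0542), but was called without EpCAM+ replicate 4, where it was -0.97 (adjusted p = 0.0319; range over alternatives 0.0319 to 0.506).

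As a share of adult beta globin counts, *Hbb-bt* made up 61.3, 38.7, 46.2 and 43.2% in EpCAM- replicates 1 to 4 and 83.9, 73.0, 71.0 and 77.9% in EpCAM+ replicates 1 to 4. The lowest EpCAM+ share, in replicate 3, had a 95% Wilson interval of 63.8% to 77.3%, and the highest EpCAM- share, in replicate 1, 53.0% to 69.1%. The shares of the fractions did not overlap, but these intervals did. The intervals take each read as an independent draw and cover no spread between libraries. Amplified reads are not independent molecules, so the intervals may be too narrow. The beta copies also share sequence, with 281 of 616 stretches of 150 bases in *Hbb-bs* and 281 of 554 in *Hbb-bt* present in the other, so that this split is uncertain as well. Summed, the pair had a log2 fold change of 0.65 that was not called (edgeR adjusted p = 0.131). The ratio of adult alpha to adult beta globin counts was 2.90, 1.86, 5.18 and 4.64 in EpCAM- replicates 1 to 4 and 0.621, 0.191, 0.929 and 0.533 in EpCAM+ replicates 1 to 4. Alpha counts thus exceeded beta counts in every EpCAM- library and in no EpCAM+ library. How reads shared by copies were counted is not known, and the alpha and beta copies share sequence to different degrees. The level of this ratio is therefore uncertain too. Of the 7 embryonic and minor globin genes in the table none passed the filter on low counts: *Hba-x* and *Hbb-bh0* were at 0 in all libraries and the others had at most 3 counts in any library. *Ahsp*, the alpha globin chaperone gene, was not analysed here.

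Markers of erythroid stages were read next to the 9 genes, from lists that were also chosen with earlier results of these data known. All 15 early erythroid and megakaryocyte-erythroid progenitor markers were tested, 4 of which are among the 9 genes. Of these 15, 14 were lower in EpCAM+ cells and 1 was higher (median log2 fold change -3.58), beside 20.8% and 21.8% of all tested genes. Of the 11 that are not among the 9 genes, 10 were lower (median -2.95). The summed level of the 15 was 2784 to 8488 CPM in EpCAM- and 313 to 519.7 CPM in EpCAM+ libraries. By mean CPM *Car1* was the most abundant in EpCAM- and *Tmem14c* in EpCAM+. *Tfrc*, the transferrin receptor that brings iron into the cell, had 1207, 1059, 1620 and 1765 counts in EpCAM- and 271, 310, 330 and 316 in EpCAM+ replicates 1 to 4 (-2.41, SE 0.17, edgeR adjusted p = 5.61e-05). *Blvrb*, biliverdin reductase B, was at -2.95 (SE 0.25, edgeR adjusted p = 0.000118), and *Sphk1*, a sphingosine kinase, had 709, 793, 1822 and 2328 counts in EpCAM- against 33, 2, 46 and 65 in EpCAM+. The exception was *Cnrip1*, higher in EpCAM+ at 1.33 (SE 0.23, edgeR adjusted p = 0.00160).

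Markers of late erythroblasts ranged from near 0 to well expressed: *Slc4a1* and *Alas2* were too low to be tested, whereas *Tspo2* was at 38.9 to 106 CPM in EpCAM-. *Slc4a1*, which encodes the anion exchanger band 3, had 0, 0, 0 and 1 counts in EpCAM- and 4, 0, 0 and 0 in EpCAM+ replicates 1 to 4. *Alas2*, the erythroid enzyme of heme synthesis, had 7, 6, 17 and 5 counts in EpCAM- and 7, 12, 5 and 4 in EpCAM+ replicates 1 to 4. Of the 15 late erythroblast and reticulocyte markers 14 were in the table and 11 were tested. Beside 20.8% lower and 21.8% higher among all tested genes, 7 of these 11 were lower and 2 were higher (median log2 fold change -2.54). Their summed level was 385 to 734 CPM in EpCAM- and 326 to 352 CPM in EpCAM+, with *Fech* the most abundant by mean CPM in EpCAM- and *Ube2l6* in EpCAM+. *Tspo2* and *Trim10* (-3.94, edgeR adjusted p = 0.000378) were among the lower ones with the smallest p. *Fech*, the last enzyme of heme synthesis, present in all cells that make heme, was at -1.04 (SE 0.18, edgeR adjusted p = 0.00143), and *Trim58* was not called (-0.53, 95% CI -1.19 to 0.13) except in the paired fit with the replicate block (-0.56, adjusted p = 0.0305, range over alternatives 0.0305 to 0.722). The higher ones were *Ube2l6* (0.68) and *Bpgm* (0.50), which makes the hemoglobin regulator bisphosphoglycerate.

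*Epor*, which encodes the erythropoietin receptor, had 812, 638, 1221 and 1435 counts in EpCAM- and 127, 213, 165 and 215 in EpCAM+ replicates 1 to 4 (-2.72, SE 0.28, edgeR adjusted p = 0.000179). It was the only one of the 12 genes of the erythropoietin receptor pathway that was lower. Beside 20.8% lower and 21.8% higher among all tested genes, 5 of the 12 were higher and 6 were not called. The median log2 fold change of the 12 was 0.36. The higher ones with the smallest p were targets of STAT5 that other cytokine receptors also induce, namely *Socs2* (2.28, SE 0.32, edgeR adjusted p = 0.000534), *Cish* (1.49, SE 0.22, edgeR adjusted p = 0.000782) and *Pim1* (1.09, SE 0.20, edgeR adjusted p = 0.00223).

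Markers of other blood cell types were read as lists as well, beside 20.8% lower and 21.8% higher among all tested genes. Stem and multipotent progenitor markers were higher in EpCAM+ for 10 of 12 tested genes (edgeR, median log2 fold change 1.04), among them *Meis1* at 1.20 and *Hlf* at 1.91. Their summed level was 2935 to 3208 CPM in EpCAM+ and 1535 to 2353 CPM in EpCAM-, with *Cd34* the most abundant. Of the megakaryocyte and platelet markers, the sister lineage of erythroid cells, 10 of 12 were tested, 2 were higher, *Gp9* (0.85) among them, and 8 were not called (median 0.11). Mast cell and basophil markers were lower for 5 of 9 tested genes, among them *Hdc* (-4.08), *Cpa3* (-2.27) and *Il1rl1* (-3.77), and their sum was 469 to 800.2 CPM in EpCAM- and 272 to 302 CPM in EpCAM+, with *Cpa3* the most abundant by mean CPM in EpCAM- and *Gata2* in EpCAM+. Neutrophil and monocyte markers were lower for 5 of 11 tested genes, among them *Mpo* (-3.74), *Csf1r* (-3.71) and *Prtn3* (-2.06), and their sum was 12126 to 19307 CPM in EpCAM- and 1209 to 1911 CPM in EpCAM+, with *Mpo* the most abundant in both fractions.

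B lymphocyte and plasma cell markers were higher for 4 of 6 tested genes, beside 21.8% of all tested genes. They were led by *Jchain*, *Mzb1* and *Ms4a1*, while the B cell factor gene *Pax5* was at 0 in all libraries. *Jchain* counts were 53916, 3902, 7671 and 3069 in EpCAM+ and 4, 0, 4 and 0 in EpCAM- replicates 1 to 4, and the summed level of the list was 4042 CPM in EpCAM+ replicate 1, 462 to 729 CPM in EpCAM+ replicates 2 to 4 and 213 to 329 CPM in EpCAM-. By mean CPM *Jchain* was the most abundant in EpCAM+ and *Xbp1*, which was not called, in EpCAM-. Of 9 genes listed for lineage gates and mature cells, 4 were tested and 3 were higher, namely *Cd79a* (3.26), *Cd4* (1.01, at 1.37 to 2.68 CPM in EpCAM+) and *Ptprc* (0.63), which encodes CD45. *Cd79a* was at 1.64 without EpCAM+ replicate 1, still called. Stem and progenitor cells carry CD45 too, and a count over the whole gene does not show its B220 form. Without EpCAM- replicates 3 and 4 the calls of *Cd79a* (3.06), *Cd4* (0.74), *Ptprc* (0.44) and *Kit* (0.50) were lost. The part of other cell types in the differences of the 9 genes was not tested.

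Within the fractions, the 9 genes varied together to different degrees, described here by Pearson's r of log2 CPM deviations from the fraction means over the same 8 libraries, with no test. *Car1* and *Ermap* tracked each other most closely among the 9 genes (r = 0.996), and *Rhd* followed *Ermap* (r = 0.968) and *Car1* (r = 0.949). *Hba-a1* varied with *Rhd* (r = 0.916) and *Klf1* with *Car1* (r = 0.868). *Car2* was the least tied to the rest, with r from -0.216 to *Hbb-bt* up to 0.553 to *Klf1*, and 0.272 to *Rhd*. Among all tested genes, the patterns most like *Car1* included *Ermap* (r = 0.996) and *Kcng2* (r = 0.985), and those most like *Ermap* included *Car1* (r = 0.996) and *Hpgd* (r = 0.991). For *Rhd* they were *Spon2* (r = 0.979), *Vamp2* (r = 0.968) and *Ermap* (r = 0.968), and for *Klf1* *Sowaha* (r = 0.982), *Pcif1* (r = 0.978) and *Acmsd* (r = 0.973). For each of the 8 genes searched in this way, all but *Hba-a2*, the highest r among 13560 genes was 0.979 or more, and the genes named differ in their own fold changes: *Hpgd* was at 1.78 and *Pcif1* at 0.01. The globin genes and *Car2* had other neighbours, for *Hba-a1* *Mgll* (r = 0.979), *Wdr26* (r = 0.969) and *Proser2* (r = 0.968), for *Hbb-bs* *Cd47* (r = 0.997), *Fam204a* (r = 0.976) and *Ubb* (r = 0.975), for *Hbb-bt* *Stk24* (r = 0.985), *Sptlc2* (r = 0.968) and *Gm14410* (r = 0.961) and for *Car2* *Slc45a4* (r = 0.988), *Abce1* (r = 0.984) and *Heatr1* (r = 0.984).

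The promoters were examined because KLF1 and GATA1 bind short DNA words at erythroid genes. RefSeq promoter windows of 300 bases on GRCm38.p6, 250 before and 50 after the RefSeq start, were matched for 7 of the 9 genes, without *Car1* and *Car2*. They were searched on both strands for GATAA, a form of the GATA factor motif, for CCAAT, the CCAAT box, and for CCNCNCCC, a form of the KLF motif, where N is any base. All 7 windows held GATAA, which 25.4% of 32851 promoters hold, and all 7 held CCAAT, which 37.4% hold. CCNCNCCC was found in the windows of *Hbb-bs*, *Hbb-bt* and *Rhd*, against 49.5% of all promoters. A match is a description, not a site or a cause, and no match says only that these letters are not in the window. The GATAA matches of *Klf1* and of both membrane genes, which were lower in EpCAM+ together, are shown with the motif in capitals (TTATC where it lies on the other strand).
Klf1, chr8:84901890-84901919, plus strand: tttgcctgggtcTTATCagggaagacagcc
Ermap, chr4:119190045-119190074, minus strand: tgaacgctcgctTTATCaggggtgggcaga
Rhd, chr4:134864482-134864511, plus strand: ccggcagcctgaGATAAgacctttggcggg

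The adult globin promoters are shown because *Hbb-bt* differed in the sign of its fold change from the other adult globin genes. Each line gives the 30 bases that end with the CCAAT box nearest before the RefSeq start on the gene's own strand, with CCAAT and any CACCC, the core of the KLF1 element, in capitals; CACCC was held by 57.5% of all promoter windows on either strand. RefSeq starts differ from the ends of the gene coordinates in the count table, by which the *Hba-a1* and *Hbb-bs* stretches lie inside the gene and that of *Hbb-bt* reaches into it.
Hba-a1, chr11:32283559-32283588, plus strand: actgggtagagcaagcacaaaccagCCAAT
Hba-a2, chr11:32296376-32296405, plus strand: actgggtagagcaagcacaaaccagCCAAT
Hbb-bs, chr7:103828000-103828029, minus strand: ccgtagagccaCACCCtggtaagggCCAAT
Hbb-bt, chr7:103813994-103814023, minus strand: ctgcagggtaaCACCCtggcattggCCAAT
The alpha stretches are the same in both copies, whose windows share an identical run of 297 of 300 bases. The beta stretches both hold CACCC ahead of CCAAT but differ around it, and the longest identical run of their windows was 14 bases. The CACCC of *Hbb-bs* is part of its CCNCNCCC match, which starts at -93 from the RefSeq start. The CACCC shown for *Hbb-bt* is not part of a CCNCNCCC match. The match in the *Hbb-bt* window starts at -107, before the stretch shown, which starts at -100.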

How the data were processed

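The 8 libraries were processed by the authors, who per the submitters' notes and the paper's methods aligned reads to GRCm38.p6 with STAR 2.6.1d, counted reads per gene with featureCounts 1.5.0-p3 and compared groups with DESeq2 1.20.0; the annotation release, strandedness and treatment of multimapping reads are not given in the sources used here. The deposited values used here are raw read counts per gene; the authors' gene length, in bases, served for CPM per kilobase. The 8 FPKM columns, and the columns of the authors' own comparisons (fold changes and p-values), were not used. Counts of all genes kept by filterByExpr were scaled by TMM and tested with edgeR 4.0.16 (R 4.3.3) by the quasi-likelihood test (two-sided); p-values were adjusted over all tested genes by the Benjamini-Hochberg method, with a threshold of 0.05. Standard errors come from the F statistic. Log2 CPM used a prior count of 2. Alternatives used DESeq2 1.42.0, other scalings and filters, libraries left out, summed globin copies and the replicate block. Same-numbered EpCAM+ and EpCAM- libraries deviated together (r from 0.205 to 0.356 in 4 pairs, against −0.216 to 0.0396 in 12 pairs of different number), so the replicate number was taken to pair them. Only the fit with the replicate block used this pairing. The main fit, which gave the standard errors and adjusted p-values above unless another is named, was unpaired. The 9 genes and all gene lists were chosen with earlier results of these data known. Named are the 9 genes, from each of 13 lists up to 3 called genes per direction with the smallest adjusted p, any member of the erythroid marker and globin lists, and for genes with a median of at least 50 counts the 3 most similar patterns; a few genes that meet these rules, though counted in their lists, are not reported here by name or drawn. The test was tried on simulated counts, but the outcome is not given here and no result above draws on it. Shared 150-base stretches were counted in GENCODE M21 transcripts, and figures were drawn with matplotlib 3.10.9 (Python 3.11.15).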

Additional observations from a re-analysis of the deposited data

Results flagged for a closer look

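Within each fraction, the 4 CPM values of the 9 genes and 48 other named genes were searched for a library far from the other 3. Chance alone passes the cut-off in about 1 in 20 groups of independent, normally distributed values. Some of these CPM are near 0 and many of the genes vary together, so that rate is no measure here. Of 114 groups, 10 held a value past the cut-off. Among the 9 genes it was *Klf1* in EpCAM+ replicate 4, at 26.5 CPM against 12.2, 12.9 and 13.1 CPM in replicates 1 to 3. The same library was far above the others for *Tspo2* (3.70 CPM) and *Atp1b2* (2.14 CPM), both also erythroid. In EpCAM- replicate 4, *Trim10* was at 5.66 CPM. Among the other genes, *Hlf* was high in EpCAM+ replicate 3 (165 CPM), and *Cd4* in EpCAM- replicate 2 (1.63 CPM). EpCAM+ replicate 1 held the B lymphocyte and plasma cell genes *Jchain* (3525 CPM), *Mzb1* (49.3 CPM) and *Cd79a* (36.4 CPM) far above the other EpCAM+ libraries, and *Ms4a1* was at 0.137 CPM in EpCAM- replicate 3 and at 0 in the other EpCAM- libraries.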

How the results depend on the processing

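The calls of *Klf1*, *Car1*, *Ermap* and *Rhd* held under every alternative tried: DESeq2, other scalings and filters on low counts, the replicate block, each library left out, and EpCAM- replicates 3 and 4 left out together. Of the 145 alternative values of the 9 genes, 137 kept their sign and their side of the threshold, 2 lost the call (*Hba-a1* and *Hbb-bt* without EpCAM- replicates 3 and 4), 3 gained it and 3 changed sign, the last all for genes that were not called. *Car2* ranged from −0.33 to 0.040 with a library left out, changing sign without EpCAM- replicate 4, and changed sign to 0.30 without EpCAM- replicates 3 and 4, and *Hbb-bs* to 0.65 when its counts were summed with those of *Hbb-bt*. The number of the 9 genes called was 6, with 7 under the replicate block, 6 to 8 with a library left out and 4 without EpCAM- replicates 3 and 4, where 0 were called higher by edgeR (1 at an unadjusted p under 0.05). In that last setting 3353 genes were called in all, 1653 higher and 1700 lower, with fewer samples in the fit. With the replicate block 6818 genes were called; among the 9 genes and the 48 others given alternatives it changed the calls of *Hba-a2*, *Gata2*, *Car13* and *Trim58* and no other.

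Of 756 alternative values of 48 other named genes, 711 kept sign and side, 33 lost the call, 5 gained it and 7 changed sign. Those 7 were all of *Tal1*, which was not called: it ranged from −0.083 to 0.020 with a library left out and was above 0 in 3 of these fits (0.013 without EpCAM+ replicate 3 and 0.0067 without EpCAM+ replicate 4), and was 0.038 without EpCAM- replicates 3 and 4, 0.062 with library totals and with upper-quartile scaling, and 0.0017 with at least 10 counts in every library. The cause was not tested. With each library left out in turn, *Car13* was called in 2, *Cd4* in 2, *Kit* in 3 and *Tmod1* in 5 of 8 fits. DESeq2 and the filter of at least 1 count in any library, which add low genes, moved the median log2 fold change of all genes to 0.14 from 0.02. Low counts limit *Hba-a2* most, with 2 to 22 counts a library and no value under the filter of at least 10 counts in every library.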
